A study of Homo sapiens with 9 samples.

Results

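The annexins are a family of proteins that bind acidic phospholipids of membranes when calcium is present. The data described here are the messenger RNA signals of 10 annexin genes (ANXA1, ANXA2, ANXA3, ANXA4, ANXA5, ANXA6, ANXA7, ANXA10, ANXA11 and ANXA13) in human AGS cells, a gastric cancer cell line. They were taken as all array probes whose platform gene symbol is one of these names, which gave 17 probes of the 24525 shared by both array versions and 10 genes of the 19262 genes and unnamed probes measured. The family was chosen with the results of this same contrast known, since ANXA1 is one of the genes that differed in it. The differences between groups below are thus a description and carry no test of their own. The study took up ANXA1 from among those genes mainly because it had earlier found lower activity of the transcription factor NF-kB, which ANXA1 inhibits, in such cells.

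The cells had been transduced with a lentivirus and stably expressed either a small hairpin RNA against HIF1A (HIF-KD) or a scrambled control hairpin (SCR). The study ran its proliferation and tracer assays in normal oxygen, and its array methods name no oxygen level. HIF1A encodes the alpha subunit of hypoxia-inducible factor 1, a transcription factor. Each group had 3 replicates, of which replicates 1 and 2 were hybridised to Illumina HumanRef-8 BeadChips and replicate 3 to a HumanHT-12 BeadChip, with 2 technical arrays for SCR and 3 for HIF-KD (9 arrays in all). The study's methods call the 3 replicates biological replicates from independent experiments. Neither they nor the labels say that the cells were transduced separately or that more than 1 line per hairpin was used. Cells of both groups carry a lentiviral hairpin, and untransduced AGS cells were not analysed here.

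Each annexin has a conserved core of repeats that holds the calcium sites and an amino-terminal tail that differs between members and binds their partners. ANXA1 is known as a mediator of the anti-inflammatory action of glucocorticoids and, through its tail peptide, as a ligand of the formyl peptide receptors. ANXA2 forms a complex with S100A10 at the plasma membrane and links membranes to actin, while ANXA10 is known as an annexin of the gastric epithelium whose calcium sites are poorly conserved.

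RefSeq promoters (build GRCh38.p14) were found for 9 of the 10 members, in 13 windows of 250 bases before to 50 bases after an annotated start. The 250 bases before the start are shown for ANXA1 and ANXA10, whose signals were higher in HIF-KD cells in every replicate, and for ANXA2, which also holds TATAAA near the start. Capitals mark the motifs that were searched, and all 3 stretches are written 5′ to 3′ on the strand of the gene. ANXA1 lies on the plus strand (chr9:73151615-73151864), ANXA10 on the plus strand (chr4:168092287-168092536) and ANXA2 on the minus strand (chr15:60397987-60398236).
ANXA1: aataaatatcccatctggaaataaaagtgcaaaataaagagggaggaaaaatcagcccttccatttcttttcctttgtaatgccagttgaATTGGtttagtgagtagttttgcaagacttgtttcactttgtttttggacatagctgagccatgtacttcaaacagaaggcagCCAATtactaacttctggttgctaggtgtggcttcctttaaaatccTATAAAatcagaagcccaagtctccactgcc
ANXA10: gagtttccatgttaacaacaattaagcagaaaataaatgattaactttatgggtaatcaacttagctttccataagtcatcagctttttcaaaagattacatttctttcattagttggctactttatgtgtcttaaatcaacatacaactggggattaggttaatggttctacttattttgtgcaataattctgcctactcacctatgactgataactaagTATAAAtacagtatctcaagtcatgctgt
ANXA2: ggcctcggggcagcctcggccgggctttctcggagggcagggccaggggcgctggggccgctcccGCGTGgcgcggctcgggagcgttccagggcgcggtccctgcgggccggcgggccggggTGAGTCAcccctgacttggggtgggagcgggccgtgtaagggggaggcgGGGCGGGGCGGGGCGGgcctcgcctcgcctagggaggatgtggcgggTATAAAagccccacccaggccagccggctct

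Over the 300 bases of a window, those of ANXA1 and ANXA10 were poor in G and C (37.7% and 32.7%), against 76.0% in that of ANXA2 and between 51.7% and 78.0% in the windows of the other members. ANXA1 and ANXA2 held TATAAA, the TATA box, 31 bases before the start, and ANXA10 held it 29 bases before. TATAAA was also found in 1 of the 3 windows of ANXA11, and on either strand in 11.5% of all 35116 RefSeq promoter windows of the same length. The core of the hypoxia response element, searched as ACGTG and GCGTG on both strands, was in no window of ANXA1, ANXA3, ANXA7 or ANXA10. ACGTG was in windows of ANXA4 and ANXA6 (21.4% of all promoters), there as part of the E-box CACGTG (7.26%), and GCGTG was in windows of ANXA2, ANXA5, ANXA6 and ANXA11 (36.5%). CCAAT, searched on both strands, was matched 2 times in ANXA1 and was also in windows of ANXA6, ANXA7 and ANXA11 (34.6% of all promoters). The GC box GGGCGG was in windows of 6 members (45% of all promoters) and in none of ANXA1, ANXA3 and ANXA10, the AP-1 motif TGANTCA was in that of ANXA2 (7.71%), and the palindromic motif of the glucocorticoid receptor was in none (0.39%). A match is a stretch of letters and was not tested as a binding site.

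HIF1A was measured first as a check of the labels. Its normalized log2 signal was 9.02, 7.57 and 7.97 in SCR replicates 1, 2 and 3 and 6.35, 5.33 and 5.95 in HIF-KD replicates 1, 2 and 3, so the groups did not overlap. It was lower in HIF-KD cells by a mean log2 difference of -2.31 ± 0.34 (SD, n = 3), a signal 4.96-fold lower. The epithelial markers KRT8, KRT18, KRT19 and EPCAM were detected on all 9 arrays, whereas none of the 8 leukocyte, fibroblast and endothelial markers measured was, with COL1A1, a collagen chain of fibroblasts, on 8 arrays and PECAM1, an endothelial adhesion molecule, on 3. In bulk RNA of a culture, fewer cells that express a gene and less RNA per cell cannot be told apart.

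Of the 17 annexin probes, 10 were detected on all 9 arrays at a detection p under 0.01, 4 on none and 3 on some. The signals in the text are log2 values after background correction and quantile normalization, and signals of different probes are not compared with each other, since probes differ in brightness. ANXA1, ANXA2, ANXA3, ANXA4, ANXA7, ANXA10 and ANXA11 each had at least 1 probe detected on every array. ANXA5, the annexin used as a reagent for exposed phosphatidylserine, and ANXA6, which carries a doubled core, had 1 probe each. That of ANXA5 was detected on 1 array, of HIF-KD cells, and that of ANXA6 on none. A probe at background does not by itself show that its gene is silent. Of the ANXA7 probes, 1 was detected on all 9 arrays and another on only 1. The 3 probes of ANXA13, known as an annexin of the intestinal epithelium, were detected on no array. These 3 members were also below the filter on dim probes, so 7 of the 10 were among the genes tested.

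ANXA1, represented by 1 probe (ILMN_2184184), had a normalized log2 signal of 6.49, 7.56 and 5.59 in SCR replicates 1, 2 and 3 and of 8.05, 8.68 and 6.83 in HIF-KD replicates 1, 2 and 3. HIF-KD was the higher sample of every replicate, but the groups overlapped across replicates, because SCR replicate 2 lay above HIF-KD replicate 3. The log2 difference, HIF-KD minus SCR, was 1.56, 1.12 and 1.24, with a mean of 1.31 ± 0.23 (SD, n = 3) or 2.48-fold. In replicate 3 the technical arrays lay between 5.56 and 5.62 for SCR and between 6.78 and 6.90 for HIF-KD, with no overlap. The gap between the lowest and the highest SCR replicate, which includes the change of array version, was thus wider than the mean difference, while the SD of the within-replicate differences was small beside their mean.

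ANXA10 was the other member that was higher in HIF-KD cells in all 3 replicates. Its log2 signal (ILMN_1699421) was 5.56, 6.03 and 5.97 in SCR replicates 1, 2 and 3 and 6.34, 7.02 and 7.02 in HIF-KD replicates 1, 2 and 3. All HIF-KD samples lay above all SCR samples, which was true of no other member and of 1.29% of all genes measured. The differences of ANXA10 were 0.78, 0.99 and 1.04, with a mean of 0.94 ± 0.14 (SD, n = 3) or 1.92-fold. Its technical arrays in replicate 3 lay between 5.72 and 6.23 for SCR and between 6.75 and 7.20 for HIF-KD.

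**Figure D1:**
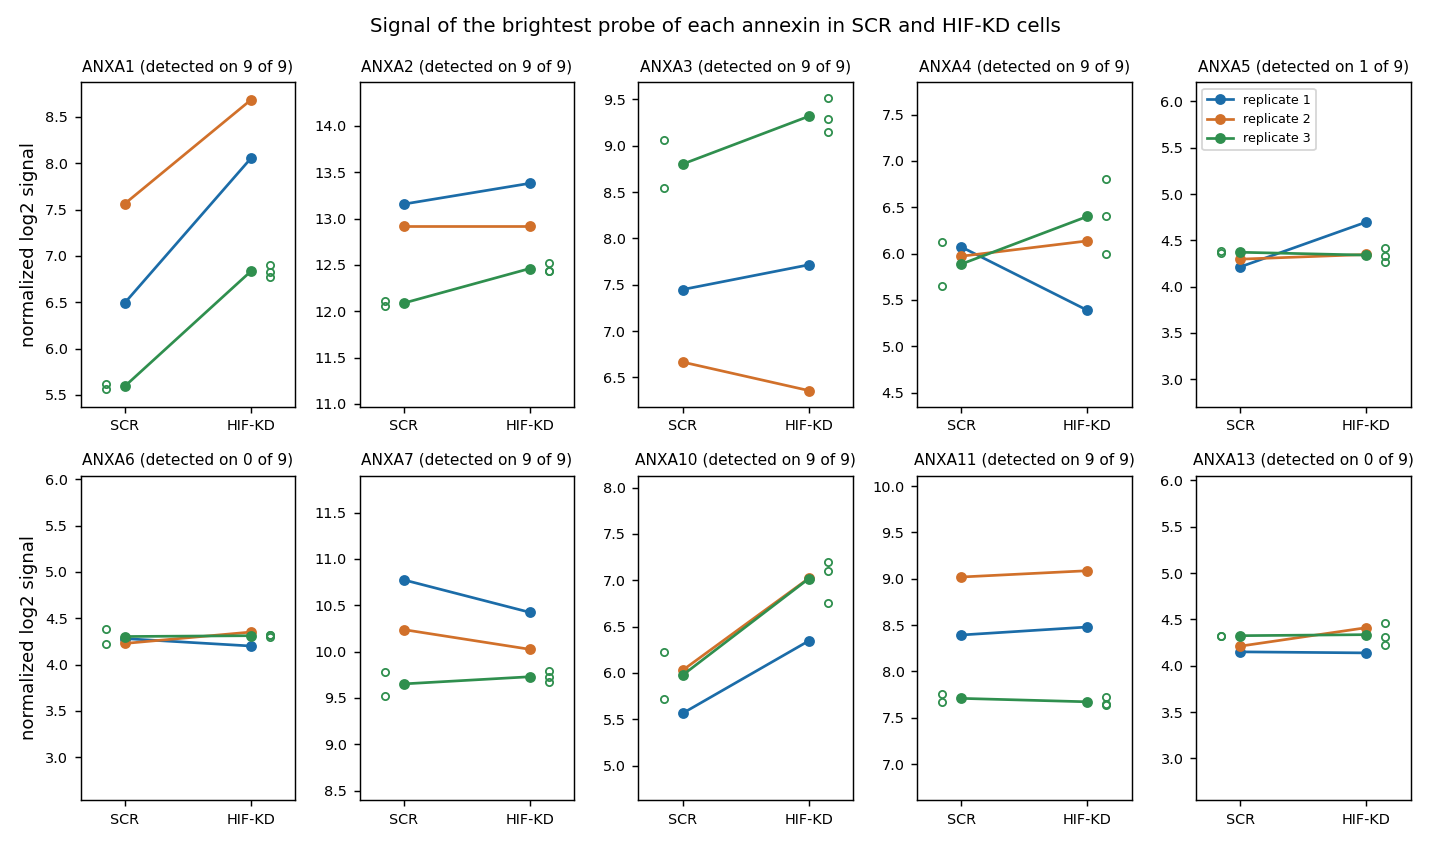
Normalized log2 signal of the brightest probe of each annexin in SCR and HIF-KD cells (filled points, 1 line per replicate; open points, the technical arrays of replicate 3), with the same height of axis in every panel and the number of arrays of 9 on which the probe was detected. ANXA1 and ANXA10 run upwards in all 3 replicates, and ANXA5, ANXA6 and ANXA13 lie at background.

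ANXA2 was measured by 3 probes, each detected on all 9 arrays. The brightest (ILMN_2409167) had a log2 signal of 13.16, 12.91 and 12.09 in SCR replicates 1, 2 and 3 and of 13.38, 12.91 and 12.46 in HIF-KD replicates 1, 2 and 3. Its differences were 0.22, 0 and 0.37 (mean 0.20 ± 0.19, SD, n = 3), where the 0 means that the probe had the same rank on both arrays of replicate 2 and so received the same normalized value. The second probe (ILMN_1711899) gave differences of 0.03, 0.26 and 0.64 (mean 0.31 ± 0.31) and the third (ILMN_1755937) of 0.62, 0.05 and 0.68 (mean 0.45 ± 0.35). None of the ANXA2 probes was lower in HIF-KD cells in any replicate, and in replicate 3 the technical arrays of the groups did not overlap for any of them. In replicate 2 the same probes differed by at most 0.26. Processed pseudogenes of ANXA2 are close copies of its transcript, so signal from them cannot be told apart with certainty. The probe assigned to the pseudogene ANXA2P1 read 0.24 ± 0.29 (0.10, 0.03 and 0.57). Of the pseudogene probes on the HumanHT-12 array alone, in replicate 3, that of ANXA2P2 differed by -0.09, and those of ANXA2P1 and ANXA2P3 by 0.21 and 0.13.

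ANXA3 and ANXA4 did not keep one direction. For ANXA3, known as an annexin of neutrophil granules, the log2 signal was 7.45, 6.67 and 8.80 in SCR replicates 1, 2 and 3 and 7.72, 6.36 and 9.32 in HIF-KD replicates 1, 2 and 3, with differences of 0.27, -0.31 and 0.52 (mean 0.16 ± 0.42, SD, n = 3). For ANXA4, an annexin of secretory and absorptive epithelia, it was 6.07, 5.97 and 5.89 in SCR and 5.39, 6.14 and 6.40 in HIF-KD, with differences of -0.68, 0.17 and 0.51 (mean 0.00 ± 0.62). In both genes the SD between replicates exceeded the mean difference. The technical arrays of replicate 3 overlapped for ANXA4 and not for ANXA3, so a difference seen within that 1 replicate was not repeated in replicate 2.

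ANXA7 and ANXA11, whose long amino-terminal tails set them apart in the family, had small differences. The bright probe of ANXA7 (ILMN_1703791) read 10.77, 10.24 and 9.65 in SCR and 10.42, 10.02 and 9.73 in HIF-KD replicates 1, 2 and 3. Its differences were -0.35, -0.21 and 0.08 (mean -0.16 ± 0.22, SD, n = 3), and a second ANXA7 probe was detected on only 1 array. The brightest probe of ANXA11 (ILMN_1685170) read 8.39, 9.02 and 7.71 in SCR and 8.48, 9.09 and 7.67 in HIF-KD replicates 1, 2 and 3, a mean difference of 0.04 ± 0.07. Another ANXA11 probe (ILMN_2380494), also detected everywhere, gave -0.05, -0.11 and -0.05 (mean -0.07 ± 0.04), and the remaining one, detected on 7 arrays, gave 0.00 ± 0.29.

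**Figure D2:**
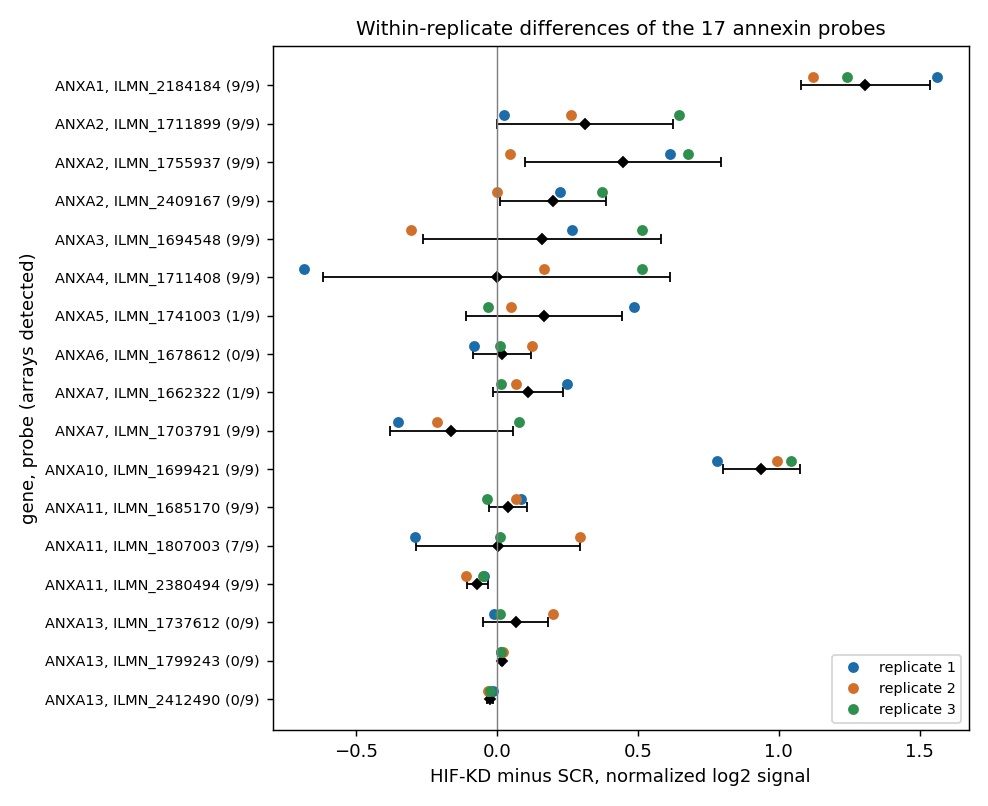
HIF-KD minus SCR in normalized log2 signal within each replicate (coloured points) for the 17 annexin probes, with the mean and SD of the 3 replicates (black) and the number of arrays of 9 on which the probe was detected. ANXA1 and ANXA10 lie wholly to the right of 0.5, while the 3 ANXA2 probes lie between 0 and 0.68.

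Set within each replicate beside its paralogs, ANXA1 had the larger difference every time. The narrowest margin was to ANXA10, where ANXA1's difference was larger by 0.78, 0.13 and 0.20 (mean 0.37 ± 0.36, SD, n = 3). To the other 8 paralogs the mean margin ran from 1.11 (ANXA2) to 1.47 (ANXA7), and the lowest margin in a single replicate was 0.73. These margins used the brightest probe of each gene. The other ANXA2 probes had larger mean differences (0.31 and 0.45) and reached 0.64 and 0.68 in replicate 3. With them the mean margin to ANXA2 and its replicate 3 margin would be narrower. Margins to ANXA5, ANXA6 and ANXA13 are to probes at background. Among the 12195 genes and unnamed probes tested, the difference of ANXA1 was the 11th highest and that of ANXA10 the 32nd highest.

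Over the family, 2 of the 10 members had a positive difference in every replicate, as 14.0% of all genes measured did. None had a negative difference in every replicate, against 15.6% of all genes. The median difference of the 10 members was 0.11 (0.16, 0.10 and 0.23 in replicates 1, 2 and 3) and that of the 9 paralogs of ANXA1 was 0.07, beside a median over all genes measured of -0.003. By limma with the replicate as a block, 1 member, ANXA1, passed an adjusted p under 0.05 as higher in HIF-KD cells and none as lower, where 0.0738% of the genes tested passed as higher (9 genes) and 5 genes passed as lower. Since the family was chosen on this contrast, nothing is read from these counts. At an unadjusted p under 0.05, 2 members were higher (ANXA1 and ANXA10) and 0 lower, beside 416 higher (3.41%) and 504 lower (4.13%) of all genes tested. Without replicate 1, no member and no gene passed (764 genes at an unadjusted p under 0.05), and without replicate 2 both ANXA1 and ANXA10 passed, among 178 genes.

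**Figure D3:**
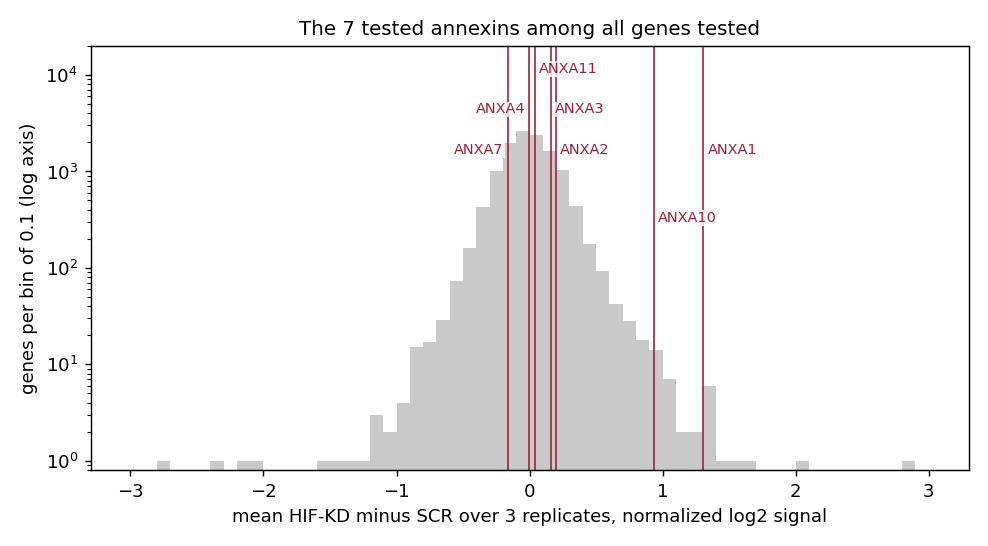
Number of genes (log axis) by mean HIF-KD minus SCR difference in normalized log2 signal over 3 replicates, for the 12195 genes and unnamed probes tested, with the 7 tested annexins as lines. ANXA1 (1.31) and ANXA10 (0.94) lie in the right tail and the other members between -0.16 and 0.20.

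Of the annexin genes outside these 10 that the arrays hold, ANXA9 was detected on all 9 arrays and read -0.15, 0.04 and 0.07 (mean -0.01 ± 0.12, SD, n = 3). ANXA8 was detected on none, and ANXA2R, the gene of a receptor for ANXA2, on 1. On the HumanHT-12 array alone, which covers replicate 3 only, the pseudogenes ANXA2P2 and ANXA2P3 were detected on all 5 technical arrays and differed by -0.09 and 0.13, and a further ANXA2P1 probe by 0.21. The 4 ANXA8 probes there gave 1 detection on 1 array between them, and ANXA8L1 gave 0.

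Annexins act with partners, most of all the S100 proteins, small calcium-binding dimers that dock on annexin tails. Of a list of 20 partners, 18 were measured and 15 tested, and 5 were above 0 and 2 below 0 in all 3 replicates, with a median difference of 0.11. Over all genes measured these shares were the 14.0% and 15.6% given above, and 1 of the 5, FPR2, was detected on no array. None passed the adjusted test by limma. At an unadjusted p under 0.05, S100A11, S100A6 and S100P were higher and PRKCA lower, where 3.41% of all genes tested were higher and 4.13% lower. The rank rule of the study's methods, which called 0.763% of all genes tested, called S100P, and the methods' t-test called 0 before and after adjustment.

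S100P, a calcium sensor of gastrointestinal tumours, had a log2 signal of 9.06, 10.63 and 10.99 in SCR and of 11.50, 11.37 and 12.11 in HIF-KD replicates 1, 2 and 3. Its differences were 2.44, 0.74 and 1.13 (mean 1.44 ± 0.89, SD, n = 3), so its mean was above that of ANXA1 and its spread was wider too. S100A11, which binds the tail of ANXA1, read 9.51, 10.08 and 9.50 in SCR and 11.03, 10.38 and 10.06 in HIF-KD, with differences of 1.52, 0.30 and 0.57 (mean 0.80 ± 0.64). S100A10, the partner of ANXA2, had a mean difference of 0.02 ± 0.05 and its largest difference in a replicate was 0.07.

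The remaining partners named had differences of 0.59 ± 0.94 (S100A4), 0.37 ± 0.33 (S100A6), and -0.35 ± 0.27 (PRKCA, a protein kinase that phosphorylates annexins). For SRI, sorcin, which binds ANXA7, the probes disagreed. Its brightest probe (ILMN_1682054) gave 0.67, 0.15 and -0.06 (mean 0.25 ± 0.37), and another (ILMN_2400219), also detected on all 9 arrays, gave -0.56, -0.18 and -0.12 (mean -0.28 ± 0.24), so no direction is given for SRI. For S100P, S100A11, S100A4 and S100A6, replicate 1 gave the largest difference of the 3. The formyl peptide receptors were hardly detected, FPR1 on 2 arrays and FPR2 on none.

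Of 13 other calcium-dependent membrane binders (copines, synaptotagmin-like proteins and ferlins), all were measured and 10 tested. Of these, 2 were above 0 and 5 below 0 in all 3 replicates, the median difference was -0.05, and none passed the adjusted test by limma. Over all genes measured the shares were again 14.0% and 15.6%, and 1 of the 5, CPNE4, was detected on no array and not tested. Also among the 5, CPNE2 was detected on only 2 arrays and DYSF on 1. CPNE7, among those above 0, was detected on 3. At an unadjusted p under 0.05, SYTL2 was higher (3.41% of all genes tested) and CPNE1 lower (4.13%), while the methods' t-test called 1 gene before adjustment and 0 after it and the rank rule called 0. SYTL2, an effector of the secretory GTPase RAB27A, gave 0.33, 0.84 and 1.19 (mean 0.79 ± 0.43, SD, n = 3) with its brightest probe, and 0.31 ± 0.40 and -0.02 ± 0.28 with probes detected on 5 and 3 arrays. The copines CPNE1 and CPNE3 gave means of -0.37 ± 0.22 and -0.35 ± 0.31.

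Of 9 genes that respond to glucocorticoids, all were measured and 7 tested, with 2 above 0 and 2 below 0 in all 3 replicates and a median difference of 0.09. The shares over all genes measured were 14.0% and 15.6%. Of those below 0, PER1 was detected on no array, and FKBP5, detected on all 9, gave -0.34, -0.08 and -0.02. None passed the adjusted test by limma, DUSP1 was higher at an unadjusted p under 0.05 (3.41% of all genes tested were), and neither the rank rule nor the methods' t-test called any. DUSP1, a phosphatase of MAP kinases, gave 0.22, 0.25 and 1.14 (mean 0.54 ± 0.52, SD, n = 3). CEBPD, a transcription factor, gave 0.83, -0.23 and 0.45 (mean 0.35 ± 0.54) and SGK1, a kinase, 0.23 ± 0.15.

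The members lie at separate places in the genome, so their nearest tested neighbours were read as well. Of 20 neighbours, 2 had a mean difference over 0.5 in size, where 3.03% of the genes tested did. ALDH1A1, which oxidises retinaldehyde to retinoic acid and is the immediate neighbour of ANXA1 with 0 protein-coding genes between them in RefSeq, read 2.83, 2.69 and 3.05 (mean 2.85 ± 0.19, SD, n = 3) and was the highest difference of the whole table. On the other side of ANXA1, C9orf40 read 0.08 ± 0.18. The 11 tested genes around this pair, 5 before ALDH1A1 and 6 beyond ANXA1, had mean differences between -0.30 (RFK) and 0.23 (NMRK1), so within this stretch ALDH1A1 and ANXA1 alone stood above 0.5. The other neighbour was DDX60, an antiviral helicase beside ANXA10, whose differences were -0.24, 0.62 and 1.42 (mean 0.60 ± 0.83).

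**Figure D4:**
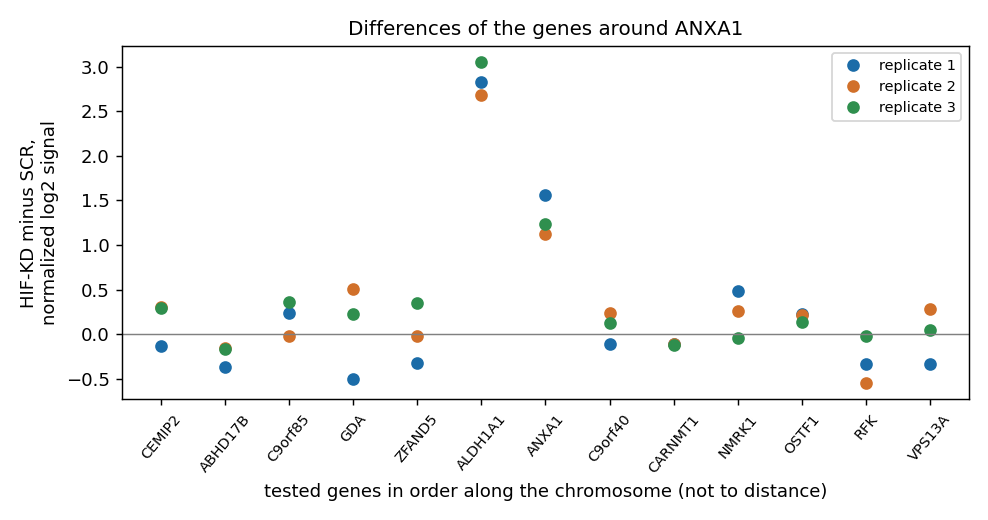
HIF-KD minus SCR in normalized log2 signal within each replicate for ANXA1 and the 6 nearest tested genes on each side, in chromosomal order and not to distance. ALDH1A1 and ANXA1 lie at or above 1.12 in every replicate and every other gene lies at or below 0.51.

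The genes whose 3 within-replicate differences were most like those of ANXA1, by Euclidean distance over the 3 replicates, were AKR1C3 (distance 0.10), ISG15 (0.16), SLPI (0.41), C4BPB (0.44) and GNE (0.45). AKR1C3, which reduces steroids and prostaglandins, read 1.61, 1.09 and 1.16, and ISG15, a ubiquitin-like protein induced by interferon, read 1.66, 1.11 and 1.36. SLPI, a secreted protease inhibitor of mucosal surfaces, read 1.90, 1.16 and 1.46, so that its replicates fell in the same order. With 3 values per gene and the 11073 named genes tested all searched, close matches are found by search alone and are given as a description.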

How the data were processed

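Total RNA of AGS cells was measured on 9 Illumina arrays. The values deposited as non-normalized are log2 signals, and a deposited detection p-value goes with every probe and array. The log2 signals were returned to the linear scale, corrected with nec of limma 3.58.1 (R 4.3.3, offset 16), quantile-normalized within each array version and taken to log2. The technical arrays of replicate 3 were averaged. A probe was discarded where it fell under the array median in each of the 6 averaged samples (14686 kept), and the brightest probe of a gene was used. HIF-KD and SCR were compared with lmFit and eBayes over all 12195 genes and unnamed probes with the replicate as a block, since SCR and HIF-KD of one replicate were hybridised to the same BeadChip. Deviations of such pairs from their group means correlated at 0.623, 0.805 and 0.850. These values include probe offsets between the array versions, which both groups share, so they cannot by themselves show pairing within a replicate. The authors' processed log2 values served as an alternative. The scripts were tested on simulated data. Between 44.4% and 55.6% of the shared probes were detected on an array, and the number of arrays limits the precision.

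The members and lists were chosen with earlier results of these data known. All 10 members were named, with other annexins, up to 6 partners and 3 genes of each other list by size of difference (S100A10, S100A11, FPR1 and FPR2 in any case), neighbours over 0.5 in size, the 5 genes most like ANXA1 and HIF1A. Cell type markers were named beside them. Gene order came from RefSeq (GRCh38.p14), and proteins were not analysed here.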

Additional observations from a re-analysis of the deposited data

How the results depend on the processing

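The log2 differences of ANXA1 and ANXA10 kept their sign under each of the 9 alternatives that changed their value and ran from 0.995 to 1.40 and from 0.62 to 1.02, the lowest with a normexp offset of 50. ANXA2, ANXA5 and ANXA7 also kept theirs, while ANXA4 and ANXA6 kept it in 6 and ANXA3 in 8 of 9 such alternatives, and ANXA11 in 8 and ANXA13 in 9 of 10. The other filters and the fit without a block leave a difference as it is. No member was called (0) with a normexp offset of 50 (8 genes in all) or without the filter on dim probes (0 genes, 1345 at an unadjusted p under 0.05). The same held without the replicate block and with array version as a covariate (2 genes, 254 at an unadjusted p under 0.05). It also held for the unpaired t-test, which leaves out the replicate block, after Benjamini-Hochberg adjustment (0 genes). Before adjustment that t-test called 116 genes and 1 member, which was ANXA10 and not ANXA1. Called were 2 members, ANXA1 and ANXA10, with scaling to a common median (50 genes) and with all arrays normalized together (30). The same 2 were called at an adjusted p under 0.1 (40) and by the rank rule built after the methods (93). With the first technical array only, 9 genes were called in all. Leaving out each replicate in turn gave between 0 and 2 members and between 0 and 178 genes: 0 genes without replicate 1, 178 without replicate 2 and 63 without replicate 3. The same 10 annexin probes were detected on all arrays at a detection p under 0.05. Motif matches were in the same members when only the 250 bases before the start were searched. The comparison of annexin proteins was not run. With 3 replicates on 2 array versions, a difference of the size seen for ANXA2 did not pass the test. Annexins whose probes lay at background have no measurable difference here, and whether those genes are silent was not tested.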
